A study of Mus musculus with 4 samples.

Results

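NRF2, encoded by Nfe2l2, is the transcription factor that cells use to switch on antioxidant and detoxification genes, and glutathione synthesis is among the best known programs under its control. A set of 10 genes of this system were selected by symbol from the gene table of the study. They comprised 5 regulators (Nfe2l2, Keap1, Bach1, Mafg and Nfe2l1) and 5 genes of glutathione synthesis, recycling and cystine supply (Gclc, Gclm, Gss, Gsr and Slc7a11). All 10 were found among the 22063 genes listed, and all 10 were among the 11448 that passed the filter on low counts. Measured values took no part in the selection rule, although earlier results of these data were known when the genes were proposed.

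The cells were ID8, a mouse ovarian cancer cell line whose label gives the genotype as WT in every sample. The control group (shCtrl) carried a control shRNA and the other group (shUSP9X) shRNA directed at USP9X. USP9X is a deubiquitinase that the study examined in TGF-β and hypoxia signaling. Each group had 2 RNA-seq libraries, and the study's shRNAs were delivered by pLKO.1-puro lentivirus. The sources used here do not give which of the mouse USP9X shRNAs listed by the study these cells carried. Whether both shUSP9X libraries carried the same one is not stated. The oxygen level and any TGF-β treatment of these cultures are not given either. Nor is it said whether the libraries came from separate cultures, so the p-values measure only the spread between these libraries, which may be technical. Library totals were 17232006 and 15611363 estimated counts for shCtrl and 19978889 and 17021261 for shUSP9X. The 10 genes summed to 0.122 and 0.123% of the library total in shCtrl, against 0.152 and 0.153% in shUSP9X.

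Usp9x, the gene the shRNA targets, was measured at 298.1 and 281.6 CPM (counts scaled to a TMM-adjusted library total of 1000000) in shCtrl and at 19.73 and 20.54 CPM in shUSP9X. The shUSP9X libraries were thus far below both controls, with a log2 fold change of -3.85 ± 0.058 (SE, n = 2 per group, edgeR adjusted p = 4.7e-26), which matches the group labels. With an offset for GC content and transcript length it was -2.07.

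Of 10 markers of the ovarian surface epithelium and mesothelium, 9 exceeded a floor of 3 counts in both shCtrl libraries and 8 in both shUSP9X libraries. Their summed level was 2565 and 2595 CPM in shCtrl and 3019 and 2970 CPM in shUSP9X, with Krt19, a keratin, the most abundant. The markers did not move together, since Krt8 (log2 fold change 0.92), Krt18 (0.64) and Upk1b (0.68) rose while the mesothelial genes Msln (-0.47) and Wt1 (-0.52) fell. The epithelial keratin Krt7 had 0 counts in both shCtrl libraries and 2 and 3 in shUSP9X, and Epcam had 1 to 6 counts in each library. Of 11 leukocyte markers, 4 exceeded the floor in both shUSP9X libraries and 0 in both shCtrl libraries. Itgam, an integrin of myeloid cells and the most abundant of them, had 72 and 75 counts in shUSP9X and 0 in both controls, and the whole list summed to 9.157 and 10.15 CPM in shUSP9X against 0.1153 and 0.06324 CPM in shCtrl. Ptprc, common to leukocytes, had 29 and 18 counts in shUSP9X, and the macrophage genes Adgre1 and Csf1r had 58 and 59 and 17 and 13, all with 0 in both controls. The macrophage genes Lyz2, C1qa and C1qb had 0 counts in every library except 2 counts of Lyz2 in shUSP9X replicate 2. Of 4 fibroblast markers, Lum and Thy1 were at 0 counts in all libraries, and the list, led by the matrix gene Dcn, summed to 184 and 180.2 CPM in shCtrl and to 124.9 and 122.9 CPM in shUSP9X. Pdgfra, the other fibroblast marker detected, went from 272 and 215 counts to 34 and 39 in the knockdown (a log2 fold change of -2.87, adjusted p = 6.6e-13). The 4 endothelial markers, led by Tek, summed to 10.44 and 11.64 CPM in shCtrl and to 6.476 and 7.004 CPM in shUSP9X, with Cdh5 and Kdr at 0 counts throughout. The part of these genes in the values below was not tested. In bulk RNA, fewer cells expressing a gene and less of its RNA per cell cannot be told apart.

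In resting cells KEAP1 binds NRF2 and presents it to a CUL3 ubiquitin ligase, so that NRF2 is degraded. Oxidants and electrophiles modify KEAP1, and NRF2 then accumulates, pairs with a small MAF protein such as MAFG and binds antioxidant response elements, where BACH1 competes with it as a repressor. Glutathione is built from cysteine, glutamate and glycine, and these steps are carried by the glutamate-cysteine ligase (GCLC with its modifier GCLM) and glutathione synthetase (GSS), while glutathione reductase (GSR) regenerates the reduced form. In ovarian cancer the pathway is best known for its part in the handling of platinum drugs. Much of the control over NRF2 acts on the protein, which RNA levels do not report.

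The core of the antioxidant response element was searched as TGACNNNGC on both strands, in RefSeq promoter windows (GRCm38.p6) from 250 bases before to 50 bases after each start. Of the 10 genes, 8 had a window, and 3 of these held the core. In all, 12.4% of 32851 windows, or 14.0% of 27025 genes by any window, held it. The 3 matches are shown so that the element's letters can be seen in the genes measured. Each is printed 5′ to 3′ in the direction of its gene, with the 9 matching bases in capitals, and a match on the opposite strand reads GCNNNGTCA.
Gclm: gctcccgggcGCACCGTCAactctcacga
Mafg: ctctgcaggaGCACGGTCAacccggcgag
Nfe2l2: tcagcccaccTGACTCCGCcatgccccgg
The stretch printed for Gclm lies at chr3:122245413-122245441, that for Mafg at chr11:120633751-120633779 and that for Nfe2l2 at chr2:75704885-75704913. Their first capital base lies 134, 222 and 240 bases before the start. The windows of Keap1, Bach1, Gss, Slc7a11 and Nfe2l1 did not hold these letters. Binding of NRF2 was not measured.

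All 10 genes changed between the groups at an adjusted p under 0.05 by the quasi-likelihood test of edgeR, 6 upward and 4 downward, which became 7 and 3 after an offset for GC content and transcript length that turned Slc7a11 upward. In this comparison 33.8% of all genes tested were higher in shUSP9X and 33.6% were lower at that threshold (40.7 and 23.5% with the offset), so a call on its own was common. At an unadjusted p under 0.05 with a fold change above 1.5, 5 of the 10 were higher and 1 was lower, where 10.8 and 18.7% of all genes tested were. Gclc, Gclm, Gsr, Gss and Keap1 made up the 5, and Bach1 was the 1 that was lower. The median log2 fold change of the 10 was 0.46, against -0.001 for all genes tested. In CPM the values of the 2 groups did not overlap for any of the 10, but over all genes tested both shUSP9X libraries lay above both controls for 41.2% and below them for 41.0%. In FPKM the groups overlapped for Mafg and Slc7a11, and Nfe2l1 was higher in both shUSP9X libraries.

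**Figure D1:**
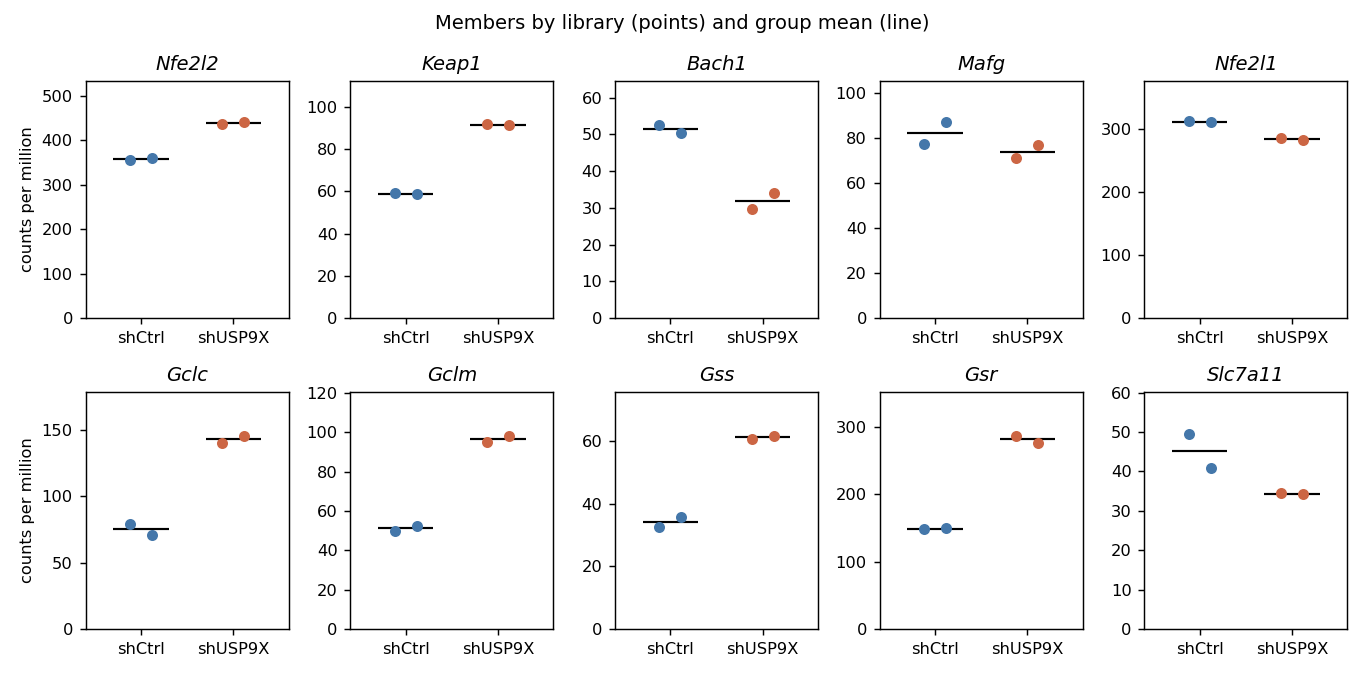
CPM of each of the 10 genes in each library (points) with the group mean (line), for shCtrl (2 libraries) and shUSP9X (2 libraries), on axes that start at 0. Nfe2l2, Keap1, Gclc, Gclm, Gss and Gsr lie higher in both shUSP9X libraries and Bach1, Mafg, Nfe2l1 and Slc7a11 lower, although Slc7a11 turns upward after the offset for GC content and length, as Nfe2l1 does by 0.03 on the log2(FPKM + 1) scale.

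Nfe2l2 (chr2:75675513-75704641, minus strand, GRCm38) was at 356.1 and 360.2 CPM in shCtrl and at 437.2 and 439.9 CPM in shUSP9X. Both shUSP9X libraries exceeded both controls, and libraries of a group differed by far less than the groups. The log2 fold change was 0.29 ± 0.036 (SE, n = 2 per group, adjusted p = 6.1e-08), a 1.22-fold rise that stood at percentile 72 of all genes tested. The rise held under each alternative tried, between 0.26 and 0.47.

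Keap1 (chr9:21229730-21239361, minus strand) encodes the adaptor that hands NRF2 to the ligase. It was at 59.22 and 58.63 CPM in shCtrl and at 91.87 and 91.4 CPM in shUSP9X. Both shUSP9X libraries again lay above the controls, by 0.64 ± 0.057 on the log2 scale (SE, n = 2 per group, adjusted p = 1.9e-10), or 1.56-fold. The ratio of Nfe2l2 to Keap1 CPM was 6.01 and 6.14 in shCtrl and 4.76 and 4.81 in shUSP9X. Exons of the antisense gene Gm16754 overlap 10.87% of the exonic bases of Keap1, and since the counting is not stated to use strand, their reads cannot be told apart.

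Bach1 (chr16:87698945-87733346, plus strand), the repressor that competes for the same elements, was at 52.59 and 50.47 CPM in shCtrl and at 29.65 and 34.07 CPM in shUSP9X. It was lower in both shUSP9X libraries, with a log2 fold change of -0.70 ± 0.080 (SE, n = 2 per group, adjusted p = 1.9e-08), and the control level was 1.62-fold higher. With the offset for GC content and length the fall was smaller, at -0.34 (adjusted p = 3.2e-04). The ratio of Nfe2l2 to Bach1 CPM was 6.77 and 7.14 in shCtrl and 14.7 and 12.9 in shUSP9X.

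Mafg (chr11:120625117-120633600, minus strand), a small MAF partner of both NRF2 and BACH1, was at 76.98 and 86.77 CPM in shCtrl and at 70.78 and 76.92 CPM in shUSP9X. The higher shUSP9X library and the lower control differed by less than 1 CPM. The log2 fold change was -0.15 ± 0.063 (SE, n = 2 per group, adjusted p = 0.039). It lost the call without shCtrl replicate 2 (-0.06, adjusted p = 0.44) or shUSP9X replicate 1 (-0.08, adjusted p = 0.40), and was -0.23 without shCtrl replicate 1. Its exons share 2.21% of their bases with Sirt7.

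Nfe2l1 (chr11:96817414-96829968, minus strand) encodes NRF1, an NRF2 relative anchored in the endoplasmic reticulum and best known for restoring proteasome genes. It was at 311.9 and 311.5 CPM in shCtrl and at 286.5 and 282.3 CPM in shUSP9X. Both shUSP9X libraries were below the controls by a small margin, with a log2 fold change of -0.13 ± 0.038 (SE, n = 2 per group, adjusted p = 0.0031) in counts but 0.03 (limma adjusted p = 0.53) on the log2(FPKM + 1) scale. Without shUSP9X replicate 2 the value was -0.11 (adjusted p = 0.11).

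The genes of glutathione synthesis and recycling all rose by 1.79-fold to 1.90-fold. Gclc (chr9:77754535-77794485, plus strand), the catalytic subunit of the rate-limiting ligase, was at 79.18 and 71.27 CPM in shCtrl and at 140.7 and 145.5 CPM in shUSP9X. Gclm (chr3:122245557-122270732, plus strand), which raises the ligase's affinity for glutamate, was at 50 and 52.24 CPM in shCtrl and at 94.81 and 98.11 CPM in shUSP9X. For both, every shUSP9X value was well clear of the controls. The log2 fold change of Gclc was 0.93 ± 0.054 (SE, n = 2 per group, adjusted p = 3.7e-14). That of Gclm was 0.92 ± 0.059 (adjusted p = 2.6e-13) and reached 1.77 with the offset. The offset took an annotated length of 5589 bases for Gclm, where its counts and FPKM imply 1807 and 1885 bases in shCtrl and 1410 and 1525 in shUSP9X. With an offset on GC content and the implied length, Gclm was at 1.33 and Gclc at 1.05. Gclc over Gclm CPM was 1.58 and 1.36 in shCtrl and 1.48 and 1.48 in shUSP9X, whereas with the offset (0.98 for Gclc) and in FPKM the rise of Gclm was the larger. Exons of Gm17494 on the opposite strand overlap 4.71% of the exonic bases of Gclm and those of Gm6061 on the same strand 3.88%.

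Gss (chr2:155563181-155592810, minus strand), which adds glycine in the last step of synthesis, was at 32.70 and 35.73 CPM in shCtrl and at 60.71 and 61.79 CPM in shUSP9X. The groups were far apart, with a log2 fold change of 0.84 ± 0.072 (SE, n = 2 per group, adjusted p = 8.1e-11). The opposite-strand genes Acss2, Gssos2 and Gssos1 share 6.68, 6.51 and 5.44% of its exonic bases. Gsr (chr8:33652523-33698163, plus strand), which reduces oxidized glutathione with NADPH, was at 148.0 and 150.2 CPM in shCtrl and at 287.1 and 277.1 CPM in shUSP9X. Both shUSP9X libraries stood well above the controls, and the log2 fold change was 0.92 ± 0.042 (SE, n = 2 per group, adjusted p = 1.9e-16). Gclc and Gsr were both at percentile 95.8 of all genes tested.

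Slc7a11 (chr3:49892526-50443614, minus strand) encodes xCT, the subunit of the cystine importer that brings in the cysteine of glutathione. It was at 49.42 and 40.85 CPM in shCtrl and at 34.50 and 34.19 CPM in shUSP9X. The controls differed from each other by more than the lower control differed from shUSP9X. A chi-square test of the control counts, which covers counting error only, gave a p of 2.5e-04. Its chi-square was 13.4, where the mean per gene in shCtrl was 3.39. In counts the log2 fold change was -0.40 ± 0.085 (SE, n = 2 per group, adjusted p = 2.1e-04), and it was -0.24 without shCtrl replicate 1. The direction turned with the offset for GC content and length, at 1.18 (edgeR adjusted p = 3.3e-15), and on the log2(FPKM + 1) scale the value was 0.09 (limma adjusted p = 0.53). No direction is therefore given for Slc7a11.

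GC content moved with the fold changes across all genes. The lowest decile of the genes by GC content (31.9 to 41.6%) had a median log2 fold change of -0.88, and the eighth and ninth deciles one of 0.25. Slc7a11, with a GC content of 40.7%, was in the lowest decile and lay above its median. Gclm (42.1%) was in the decile with a median of -0.41. Nfe2l2, Bach1 and Gclc, at 46.7 to 47.7%, were in the fourth decile, whose median was -0.06. Gsr was in the sixth, Mafg, Nfe2l1 and Gss in the eighth, and Keap1 in the ninth. The offset took the length of an annotated transcript, which for Gclm was 5589 bases. It removes each library's trend on GC content and length, and it also moved the median of all genes tested to 0.10. Relative to that median the offset values were 1.67 for Gclm, 0.88 for Gclc, 0.73 for Gsr, 0.52 for Gss, 0.47 for Keap1, 0.22 for Nfe2l2, -0.27 for Mafg, -0.27 for Nfe2l1, -0.44 for Bach1 and 1.08 for Slc7a11. Of the 7707 genes changed without the offset and the 7344 changed with it, 5361 were changed in the same direction in both, or 69.6% of the first and 73.0% of the second.

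**Figure D2:**
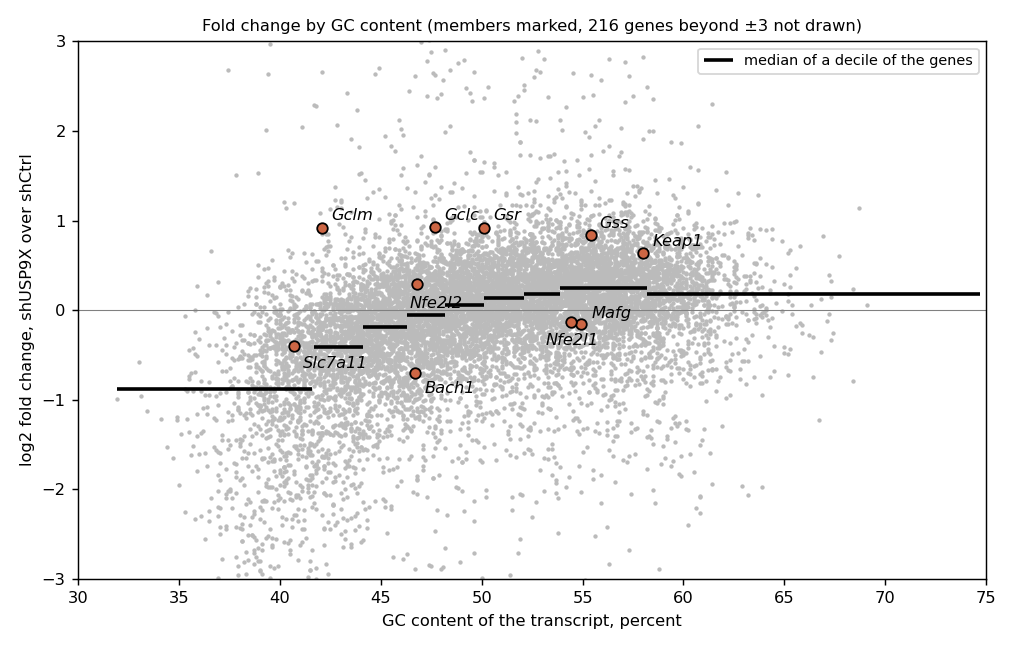
Log2 fold change of shUSP9X over shCtrl against the GC content of the transcript for all genes tested (grey), with the 10 genes marked and the median of each decile of the genes by GC content as a black line, and 216 genes beyond 3 log2 units not drawn. The medians climb from -0.88 in the lowest decile to 0.25, and Slc7a11 (-0.40, but 1.18 with the offset) lies above the median of its decile.

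**Figure D3:**
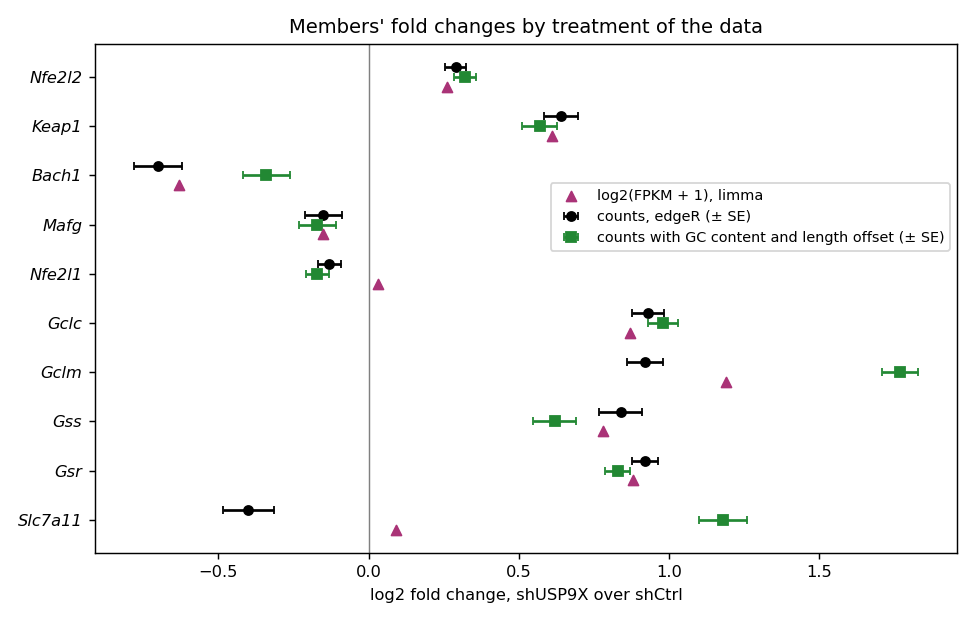
Log2 fold change of shUSP9X over shCtrl for the 10 genes from counts by edgeR (circles, ± SE), from counts with the offset for GC content and length (squares, ± SE) and from log2(FPKM + 1) by limma (triangles), with 2 libraries in each group. Slc7a11 lies at -0.40, 1.18 and 0.09 in these and Nfe2l1 at -0.13, -0.17 and 0.03, while the other 8 lie on 1 side of 0 in all of them.

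Levels can be compared between genes on the FPKM scale, which divides by transcript length. In shCtrl the mean (± SD, n = 2) was highest for Nfe2l2 (146.1 ± 1.85 FPKM), followed by Nfe2l1 (73.62 ± 0.548 FPKM), Gsr (56.31 ± 0.853 FPKM) and Gclm (27.96 ± 0.161 FPKM). Next came Gclc (22.18 ± 1.55 FPKM), Mafg (20.4 ± 3.18 FPKM), Gss (18.19 ± 1.55 FPKM) and Keap1 (18.11 ± 0.0799 FPKM), and each neighbouring pair among these overlapped in its libraries. Bach1 (8.867 ± 0.218 FPKM) and Slc7a11 (4.94 ± 0.64 FPKM) were the lowest. In shUSP9X the order was Nfe2l2 (175.3 ± 0.843 FPKM), Gsr (104.4 ± 2.59 FPKM), Nfe2l1 (75.31 ± 1.6 FPKM), Gclm (65.1 ± 1.99 FPKM), Gclc (41.37 ± 0.991 FPKM), Gss (31.99 ± 0.183 FPKM), Keap1 (28.18 ± 0.282 FPKM) and Mafg (18.28 ± 1.74 FPKM). There Bach1 (5.374 ± 0.53 FPKM) and Slc7a11 (5.302 ± 0.349 FPKM) overlapped, and the other neighbours did not. Gsr thus stood above Nfe2l1 in shUSP9X and below it in shCtrl, and Gss and Keap1, which overlapped with Mafg or each other in shCtrl, stood above Mafg in shUSP9X.

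The deposited FPKM do not use 1 length for each gene. The length implied by a gene's count, its FPKM and the library total was 9223 and 9222 bases for Slc7a11 in shCtrl and 6753 and 6100 bases in shUSP9X. The ratio of the group means, 0.697, was at percentile 0.9 of the genes tested, whose median ratio was 1.000. For Gclm the implied length was 1807 and 1885 bases in shCtrl and 1410 and 1525 bases in shUSP9X (ratio 0.795), and for Nfe2l1 it was 4241 and 4309 against 3821 and 3656 bases (ratio 0.874). Nfe2l2, Bach1, Gclc and Gsr had a ratio of 1.000, so their FPKM and count changes carry the same length. Of all genes tested, 61.6% had a ratio within 2 percent of 1.

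Known NRF2 target genes outside the 10 mostly rose. Of 35 listed, 32 were tested, 29 were higher and 0 were lower (26 and 0 with the offset for GC content and length). Among all genes tested, 33.8% were higher and 33.6% lower without the offset, and 40.7 and 23.5% with it. Me1 (0.04), Ugdh (-0.04) and Trim16 (0.07, log2 fold change) did not pass the test. At an unadjusted p under 0.05 with a fold change above 1.5, 20 were higher and 0 lower, where 10.8 and 18.7% of all genes tested were. The median log2 fold change of the 32 was 0.85. Nqo1, a quinone reductase and a standard NRF2 readout, went from 25.60 and 26.69 CPM in shCtrl to 163.0 and 156.3 CPM in shUSP9X. That was a 6.11-fold rise (log2 fold change 2.61 ± 0.060, adjusted p = 9.5e-23). Gsta1, a glutathione transferase, went from 3.518 and 3.352 CPM to 103.4 and 95.97 CPM (log2 fold change 4.86 ± 0.101, adjusted p = 1.3e-23). It has close copies, among which the counting may have divided reads, so its value is uncertain. Hmox1, the heme oxygenase that BACH1 represses, went from 44.23 and 39.34 CPM to 65.46 and 67.90 CPM (0.67 ± 0.069, adjusted p = 3.1e-09, and 0.42 with the offset). Txnrd1, thioredoxin reductase, went from 376.7 and 377.8 CPM to 558.5 and 559.8 CPM (0.57 ± 0.035, adjusted p = 8.9e-14). By the same promoter search, 10 of the 29 listed genes with a window held TGACNNNGC, where 14.0% of 27025 genes did by any window. The list was made of genes with known antioxidant response elements, so this share is no result of these data.

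**Figure D4:**
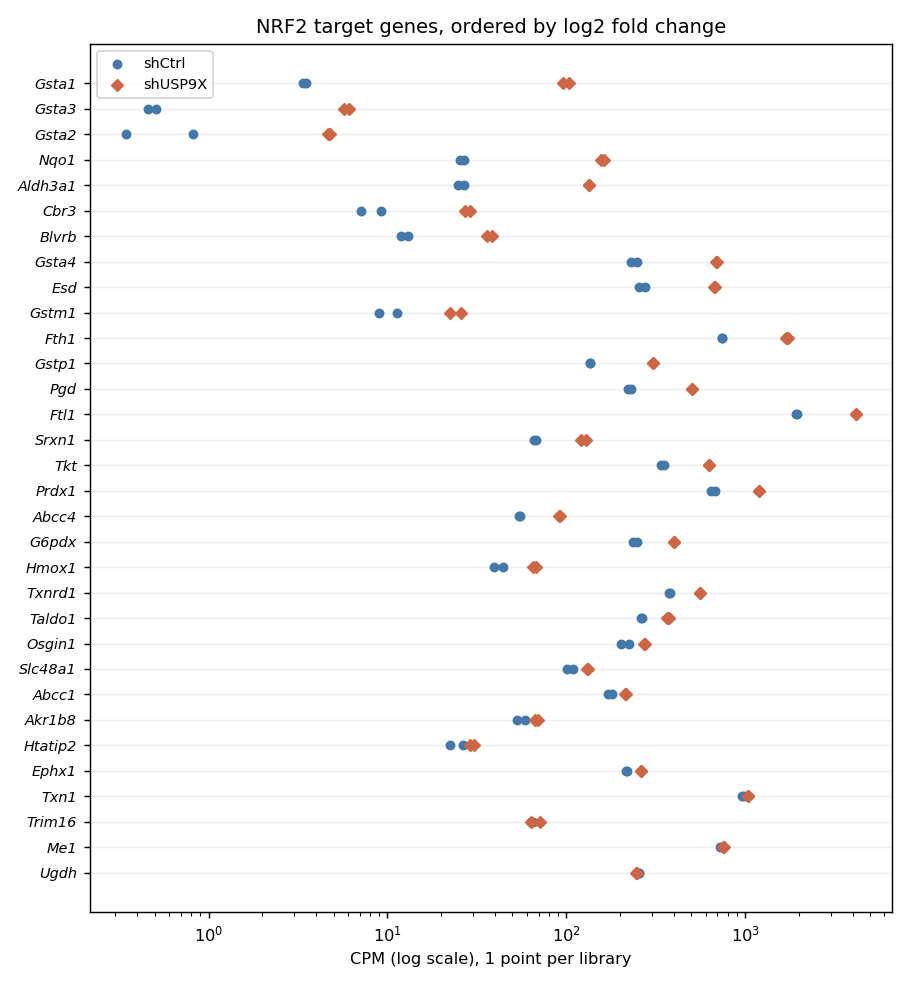
CPM on a log axis of the 32 NRF2 target genes tested, with 1 point per library (shCtrl circles, shUSP9X diamonds, 2 libraries each), ordered by log2 fold change from 4.86 (Gsta1) to -0.04 (Ugdh). The groups are apart with shUSP9X higher for 30 genes, apart with shUSP9X lower for 1 (Ugdh) and overlapping for 1 (Trim16), where 41.2% of all genes tested are apart and higher and 41.0% apart and lower.

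The relatives and partners of NRF2 were divided. Of 5 listed, 4 were tested, 2 were higher and 2 lower at the threshold (2 and 1 with the offset). Among all genes tested, 33.8% were higher and 33.6% lower (40.7 and 23.5% with the offset), so such a split was common. The median log2 fold change of the 4 was -0.28 but ran from -0.38 to 0.45 over the alternatives. The small MAF genes Maff and Mafk rose, Maff from 42.38 and 36.43 to 56.41 and 58.52 CPM (0.54 ± 0.075, adjusted p = 5.0e-07, and 0.33 with the offset) and Mafk from 69.83 and 68.68 to 93.09 and 95.14 CPM (0.44 ± 0.055, adjusted p = 8.5e-08). Mafg was at -0.15 but passed the threshold in only 11 of 18 alternatives. Its difference in direction from Maff and Mafk was not tested. Nfe2l3 was at -1.01 ± 0.156 (adjusted p = 2.5e-06), from 12.86 and 11.83 to 6.627 and 5.579 CPM. Bach2 (-1.70, adjusted p = 0.025) rests on 12 counts in each control and 5 and 3 counts in the knockdown, and it did not pass the test in 10 of the 15 alternatives that gave it a value.

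Of 13 genes that control NRF2 protein, all tested, 5 were higher, 4 were lower and 4 did not pass the test, where 33.8% of all genes tested were higher and 33.6% lower. With the offset 8 were higher and 2 lower, where 40.7 and 23.5% of all genes were, and the median without it was 0.02 (-0.07 to 0.13 over the alternatives). Sqstm1, the autophagy receptor p62 that draws KEAP1 away from NRF2, went from 451.5 and 445.7 CPM to 620.0 and 598.9 CPM (0.44 ± 0.035, adjusted p = 1.5e-11, and 0.28 with the offset). Gsk3a, a kinase that marks NRF2 for another ligase, was at 0.34 ± 0.050 (adjusted p = 1.2e-06), and at 0.18 with the offset or 0.08 relative to the median of all genes. Its paralogue Gsk3b was at -0.64 ± 0.057 (adjusted p = 1.5e-10) without the offset and at 0.13 (adjusted p = 0.043) with it. Cul3, the scaffold of the KEAP1 ligase, went from 233.0 and 223.2 CPM to 105.1 and 107.8 CPM, a log2 fold change of -1.10 ± 0.046 (adjusted p = 2.5e-17). With the offset it turned to 0.17 (adjusted p = 8.7e-04), or 0.07 relative to the median of all genes. Usp15, a deubiquitinase of KEAP1, likewise was at -1.15 ± 0.055 (adjusted p = 5.2e-16) without the offset and at 0.40 (adjusted p = 7.9e-08) with it. The fold changes of Cul3, Usp15 and Gsk3b therefore have no settled direction here.

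Of 7 genes that process or degrade NRF1, 2 were higher, 3 were lower and 2 did not pass the test (3 higher and 2 lower with the offset), against 33.8 and 33.6% of all genes tested (40.7 and 23.5% with the offset), with a median of -0.13 (-0.22 to 0.17 over the alternatives). Vcp, the segregase that extracts NRF1 from the membrane, rose by 0.40 ± 0.034 (adjusted p = 6.3e-11), and Fbxw7, a ubiquitin ligase subunit, fell by 0.61 ± 0.105 on the log2 scale (adjusted p = 1.1e-05), and was at -0.39 with the offset. Btrc, a subunit of a ligase that takes both NRF1 and NRF2, was at 0.24 ± 0.097 (adjusted p = 0.031) and at 0.59 (adjusted p = 2.1e-06) with the offset. It did not pass the test in 7 of 18 alternatives. Sel1l, a subunit of the ligase complex that degrades endoplasmic reticulum proteins, was at -0.25 ± 0.046 (adjusted p = 2.8e-05), and at 0.07 (adjusted p = 0.16) with the offset. The count of 5 genes changed fell to 3 without shCtrl replicate 2 and to 3 without shUSP9X replicate 2.

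Of 16 genes that supply cysteine, glutamate and glycine, 13 were tested, 5 were higher, 5 were lower and 3 did not pass the test (6 and 6 were called with the offset). These shares were near those of all genes tested without the offset, 33.8 and 33.6%, and the latter were 40.7 and 23.5% with it. The list had a median of -0.02 (-0.12 to 0.03 over the alternatives). Slc3a2, the partner chain of xCT, was at 216.9 and 221.4 CPM in shCtrl and at 218.8 and 213.8 CPM in shUSP9X (-0.02 ± 0.041, adjusted p = 0.71), and its groups overlapped. With the offset Slc3a2 was lower, at -0.16 (edgeR adjusted p = 7.4e-04), and it did not pass the test in 14 of 18 alternatives. Glud1, glutamate dehydrogenase, rose by 0.50 ± 0.037 (adjusted p = 5.6e-12) and Ahcy, of the methionine cycle, by 0.36 ± 0.039 (adjusted p = 5.6e-09, and 0.22 with the offset). Slc38a2, a neutral amino acid carrier, was at -0.63 ± 0.035 (adjusted p = 1.3e-14), at -0.12 (adjusted p = 0.0036) with the offset for GC content and length and at 0.03 with an offset on GC content and the implied length. Cbs and Cth, the enzymes that make cysteine from homocysteine, were below 0.5 CPM in every library and were not tested.

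Genes that use glutathione rose as far as they passed the test. Of 14, 12 were tested, 10 were higher (8 with the offset), 0 were lower and 2 (Gpx8 and Glrx2) did not pass it, where 33.8% of all genes tested were higher (40.7% with the offset) and 33.6% lower. The median was 0.30, and 0.47 with the offset (0.26 to 0.49 over the alternatives). Gpx4, the peroxidase that reduces lipid peroxides, went from 217.1 and 229.4 CPM to 311.1 and 316.3 CPM (0.49 ± 0.040, adjusted p = 3.5e-11), but with the offset it was 0.25, or 0.15 relative to the median of all genes. Esd, which hydrolyses S-formylglutathione and was also listed as a target gene, went from 275.5 and 253.8 CPM to 675.9 and 672.5 CPM (1.35 ± 0.039, adjusted p = 1.1e-20). Glrx5, a mitochondrial glutaredoxin, rose by 0.91 ± 0.086 (adjusted p = 5.2e-10).

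Of 20 genes of glutathione breakdown and transport, 15 were tested, 7 were higher, 4 were lower and 4 did not pass the test (10 higher and 3 lower with the offset), against 33.8 and 33.6% of all genes tested (40.7 and 23.5% with the offset), with a median of 0.15 (-0.19 to 0.51 over the alternatives). Chac1, which degrades glutathione in the cytosol and is induced through ATF4, went from 43.54 and 50.66 CPM in shCtrl to 12.39 and 10.09 CPM in shUSP9X. Its log2 fold change of -2.06 ± 0.109 (adjusted p = 4.4e-15) was -2.29 with the offset. Among the 7 higher, Ggt1 and Abcc3 were scarce in shCtrl, with means of 0.31 and 0.55 CPM (2.17 and 1.6 CPM in shUSP9X). Neither reached 10 counts in every library. The filter that requires this left 13 genes of the list, of which 9 changed, with a median of 0.01. Abcc1, at 0.28, was counted in the target list too. Abcc4, an exporter that also stands in the target list, rose by 0.74 ± 0.058 (adjusted p = 1.2e-11), and Slc25a39, the mitochondrial glutathione importer, by 0.60 ± 0.048 (adjusted p = 2.3e-11, and 0.40 with the offset). Abcg2, a drug exporter, was at -0.39 ± 0.050 (adjusted p = 2.0e-07) without the offset and at 0.90 (adjusted p = 6.1e-18) with it.

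Of 6 other regulators of Slc7a11, 5 were lower (4 with the offset) and 1 was higher, where 33.6% of all genes tested were lower (23.5% with the offset) and 33.8% higher. The median was -0.41 (-0.58 to -0.31 over the alternatives). Of the 5, Eif2ak4 (-0.18, adjusted p = 0.044) did not pass the test in 12 of 18 alternatives and Atf3 (-0.39, adjusted p = 0.032) in 5. Atf4, the amino acid stress factor that activates Slc7a11, went from 465.9 and 476.2 CPM in shCtrl to 350.7 and 353.1 CPM in shUSP9X (-0.42 ± 0.036, adjusted p = 7.0e-11), and it was -0.66 with the offset. Eif2ak3, the kinase PERK upstream of ATF4, fell by 0.57 ± 0.081 on the log2 scale (adjusted p = 7.1e-07). Trp53, which represses Slc7a11, went from 169.6 and 176.7 CPM to 313.2 and 293.1 CPM (0.81 ± 0.043, adjusted p = 5.2e-15).

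**Figure D5:**
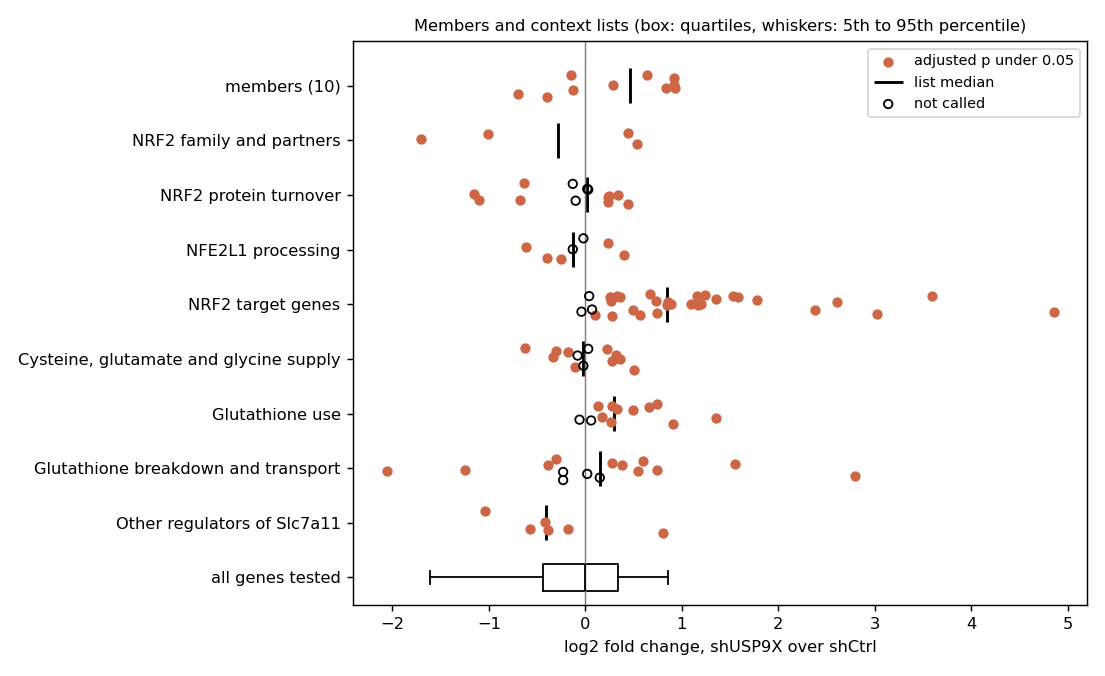
Log2 fold change of shUSP9X over shCtrl (2 libraries per group) for the tested genes of each list, filled where the edgeR adjusted p is under 0.05 and open where it is not, with list medians as black lines and the quartiles and 5th to 95th percentiles of all genes tested as a box. The NRF2 target genes have a median of 0.85 (0.79 with at least 10 counts in every library) and none lies lower at that threshold. Among others Cul3, Usp15, Abcg2, Sel1l and Slc7a11 lie below 0 here but above 0 with the offset for GC content and length. The median of all genes is 0.10 with that offset, and relative to it Cul3 is at 0.07 and Sel1l at -0.03.

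Over the 4 libraries, the tested genes whose pattern was most like that of Gclc were Hmga2, Fbl and Tmbim1. Their Euclidean distances in gene-centred log2 CPM were 0.030, 0.047 and 0.051, and their log2 fold changes were 0.95, 0.91 and 0.94. With 4 libraries in 2 groups, such likeness reflects little more than an equal difference between the groups.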

How the data were processed

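RNA was extracted with TRIzol and made into libraries after poly(A) selection with a NEBNext Ultra kit. Per the labels' processing notes the tools were fastp 0.18.0, Bowtie2 2.2.8, HISAT2, StringTie 1.3.1 and RSEM, and the methods give GRCm38 as the genome. The annotation release is not given in the sources used here. The authors deposited estimated counts per gene and library, not normalized, and FPKM per gene and library, which are scaled for length and library size. In each library 6.395 to 6.69% of the genes had a count that was not exactly a whole number. The tests had been planned for whole counts, so values were rounded. Molecular identifiers are not described, so the floor of 3 counts covers counting error only.

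After a filterByExpr filter and TMM normalization, edgeR 4.0.16 under R 4.3.3 tested genes by quasi-likelihood, with Benjamini-Hochberg adjustment over 11448 genes, without a replicate block. CPM were computed from the TMM-adjusted library totals. Within groups, counts differed by more than sampling noise (mean chi-square per gene 3.39 in shCtrl and 2.09 in shUSP9X), so no libraries were merged. The procedure was tested on simulated data. Coordinates, GC content and lengths came from GENCODE M21, which holds 21973 of the 22063 identifiers.

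The 10 genes, the context and marker lists and the tests were chosen with earlier results of these data known. Text names the 10 genes, Usp9x, Hmox1, Nqo1, Txnrd1, Slc3a2, Sqstm1, Cul3, Gpx4 and Atf4, up to 2 rises and 2 falls per list by size (adjusted p under 0.05, mean of at least 20 CPM), and the 3 genes most like the member of largest absolute change. A gene that this rule names is not reported here. Other genes were named after their values were seen. Alternatives were DESeq2 1.42.0, DESeq2 size factors, upper quartile, library size only, 2 other count filters (any count, and at least 10 counts in every library), limma 3.58.1 on log2(FPKM + 1) and log2(FPKM + 0.1) for a mean FPKM of at least 1 or above 0, a replicate block, a loess offset (span 0.3) on GC content and length, and each library left out. Offsets on GC content alone and on GC content with implied length were added after seeing the data.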

Additional observations from a re-analysis of the deposited data

How the results depend on the processing

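Gclc, Gclm, Gss, Gsr, Keap1, Nfe2l2, Bach1 and Usp9x had the same sign and passed the 0.05 threshold in all 18 alternatives, with ranges of 0.86 to 1.05, 0.89 to 1.77, 0.62 to 0.91, 0.83 to 0.95, 0.53 to 0.67, 0.26 to 0.47, -0.79 to -0.21 and -3.91 to -2.07 (log2 fold change). Mafg passed the threshold in 11 of 18. It missed it by DESeq2 (-0.14, adjusted p = 0.23), upper quartile scaling (-0.12, adjusted p = 0.10) and limma on FPKM (-0.15, adjusted p = 0.31, 0.31 and 0.43), and was -0.23 to -0.06 with a library left out. Nfe2l1 turned to 0.03 in the 3 FPKM settings (adjusted p = 0.53, 0.54 and 0.50) and was -0.14 to -0.11 with a library left out. Slc7a11 turned upward in 7 settings, with 0.09, 0.10 and 0.09 by limma on FPKM (adjusted p = 0.53, 0.53 and 0.62), 1.18 with the GC and length offset, 1.18 with that offset and the replicate block, 0.55 with a GC-only offset and 1.33 with GC content and implied length (edgeR adjusted p = 6.4e-14). It was -0.52 to -0.24 with a library left out. The FPKM settings differ from counts by the implied length and also in scaling, filter and test, and the offsets by the trend they remove. Which of these moved Slc7a11 or Nfe2l1 was not tested, and for Mafg the cause was not tested either.

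Of the 10 genes, 7 to 10 passed the threshold over the alternatives and 6 or 7 of them were higher. Genes changed over the whole table numbered 6184 to 7821. Their share that was higher was 50.1%, and 63.4% with the GC and length offset, 63.7% with that offset and the block, 63.9% with the GC-only offset and 63.7% with implied length. The NFE2L1 processing list had 5 genes changed, 3 by DESeq2 and 3 to 4 with a library left out, and the glutathione use list 10, and 6 by limma on FPKM above 0. The deviations of libraries with equal replicate numbers correlated at -0.045, so no shared replicate effect was visible. With 2 libraries per group this cannot show whether the libraries were paired. With the replicate block 7665 genes changed against 7707, with no call on the 10 genes altered. With 2 libraries per group, leaving out 1 leaves a lone library that is assumed to vary like the other group.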
